A study of Homo sapiens with 33 samples.

Results

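The clustered protocadherins are a family of cadherin-like cell surface proteins encoded in 3 tandem arrays, alpha, beta and gamma, on the long arm of human chromosome 5. Members were taken by gene symbol, as every gene on chromosome 5 named PCDHA, PCDHB, PCDHGA, PCDHGB, PCDHAC or PCDHGC followed by a number, which gave 53 of the 35805 genes in the RNA-seq table and 125 of the 153958 promoter windows in the ChIP-seq table. The alpha cluster held 15 genes (GRCh38, chromosome 5, 140786136 to 141012347), the beta cluster 16 genes (141051135 to 141249365) and the gamma cluster 22 genes (141330571 to 141512981), of which 12 were of the gamma A, 7 of the gamma B and 3 of the C type. All 53 lie on the plus strand.

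The samples were cells of H9, an established human embryonic stem cell line, in 4 EZH2 genotypes: unmodified EZH2+/+, heterozygous EZH2-/+, homozygous EZH2-/- and EZH2-/- +EZH2. EZH2 is the catalytic subunit of Polycomb Repressive Complex 2, which methylates lysine 27 of histone H3 (H3K27me3), and its gene was disrupted with CRISPR/Cas9. According to the study's methods, an EZH2-/+ line received a doxycycline-inducible EZH2 transgene before its second allele was targeted. Homozygous lines were isolated with the transgene induced (EZH2-/- +EZH2) and could then be kept without induction, and lines with the transgene excised were also made; which of these the EZH2-/- libraries came from is not given in the sources used here. The edited lines were expanded from single colonies, so genotype and clone cannot be told apart, and the labels do not say whether the replicates of a genotype were separate cultures, in which case p-values measure only the spread between these samples. All cells grew on irradiated mouse feeder cells and were sorted for the surface antigen SSEA4. Each genotype had 3 RNA-seq libraries, and 1 deposited ChIP-seq column for each of H3K4me3, H3K27me3, H3K27ac, H3K4me1 and input. The labels name 2 libraries behind each of these columns, while the study's text gives another number. EZH2 ChIP-seq was given for EZH2+/+ cells, in 1 column.

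The alpha and gamma clusters share an unusual architecture. Each gene has its own promoter and its own large first exon, which encodes the extracellular cadherin repeats, and this exon is spliced to 3 short exons at the end of the cluster that are common to all its members. Beta genes have a single coding exon and share none. A cell switches on a few of the variable promoters, a choice associated with promoter DNA methylation and with the looping factors CTCF and cohesin, and the resulting set of isoforms gives neurons a surface identity through matching (homophilic) binding. The C-type genes (PCDHAC1, PCDHAC2, PCDHGC3, PCDHGC4 and PCDHGC5) lie nearest to the common exons and are regulated apart from the variable genes.

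Promoter sequences of 6 members are shown because the RNA or chromatin results below turn on them. PCDHA6 and PCDHGB6 had less RNA, and PCDHA10 and PCDHGB5 more, in EZH2-/- than in EZH2+/+ cells. These directions hold after the reads common to a cluster are subtracted, as described below. With all reads counted, PCDHA6 was not called and PCDHGB5 was called lower. The C-type genes PCDHAC1 and PCDHGC4 lost H3K27me3. Each sequence runs 5′ to 3′ on the plus strand from 250 bases before to 50 bases after the gene's start in RefSeq (GRCh38.p14). Capitals mark CGCT on the plus strand, or AGCG, the same letters read from the minus strand. CGCT is the core of a sequence element known from many, but not all, clustered protocadherin promoters. Where the motifs overlap, the capitals run together.
PCDHA6 (chr5:140827710-140828009): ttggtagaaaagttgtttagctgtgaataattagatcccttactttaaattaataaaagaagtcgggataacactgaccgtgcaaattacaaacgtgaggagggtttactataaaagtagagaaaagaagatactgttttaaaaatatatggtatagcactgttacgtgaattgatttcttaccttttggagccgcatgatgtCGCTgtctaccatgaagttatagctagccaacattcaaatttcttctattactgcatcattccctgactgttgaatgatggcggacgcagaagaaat
PCDHA10 (chr5:140855647-140855946): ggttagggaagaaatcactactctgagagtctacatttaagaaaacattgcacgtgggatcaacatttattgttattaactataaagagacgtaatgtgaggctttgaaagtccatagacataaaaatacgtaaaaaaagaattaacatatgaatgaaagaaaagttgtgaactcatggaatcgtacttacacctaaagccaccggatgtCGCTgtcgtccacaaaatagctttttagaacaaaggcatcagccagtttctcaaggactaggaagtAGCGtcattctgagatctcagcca
PCDHGB5 (chr5:141397697-141397996): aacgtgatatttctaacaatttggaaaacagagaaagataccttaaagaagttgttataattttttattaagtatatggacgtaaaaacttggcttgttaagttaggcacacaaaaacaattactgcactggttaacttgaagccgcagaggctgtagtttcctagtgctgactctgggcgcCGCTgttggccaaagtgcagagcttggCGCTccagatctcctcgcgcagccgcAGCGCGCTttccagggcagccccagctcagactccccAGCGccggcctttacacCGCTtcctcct
PCDHGB6 (chr5:141407771-141408070): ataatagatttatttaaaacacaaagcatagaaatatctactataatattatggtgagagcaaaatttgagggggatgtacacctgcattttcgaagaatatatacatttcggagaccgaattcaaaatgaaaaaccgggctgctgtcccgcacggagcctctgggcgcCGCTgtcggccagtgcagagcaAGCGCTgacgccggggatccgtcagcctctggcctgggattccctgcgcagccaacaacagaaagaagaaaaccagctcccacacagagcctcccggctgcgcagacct
PCDHAC1 (chr5:140926049-140926348): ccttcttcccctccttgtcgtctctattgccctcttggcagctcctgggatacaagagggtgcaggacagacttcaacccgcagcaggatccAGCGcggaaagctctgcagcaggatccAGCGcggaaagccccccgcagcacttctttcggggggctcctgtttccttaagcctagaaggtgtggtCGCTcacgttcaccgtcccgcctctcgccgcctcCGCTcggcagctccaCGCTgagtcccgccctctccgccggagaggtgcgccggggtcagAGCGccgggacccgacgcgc
PCDHGC4 (chr5:141484780-141485079): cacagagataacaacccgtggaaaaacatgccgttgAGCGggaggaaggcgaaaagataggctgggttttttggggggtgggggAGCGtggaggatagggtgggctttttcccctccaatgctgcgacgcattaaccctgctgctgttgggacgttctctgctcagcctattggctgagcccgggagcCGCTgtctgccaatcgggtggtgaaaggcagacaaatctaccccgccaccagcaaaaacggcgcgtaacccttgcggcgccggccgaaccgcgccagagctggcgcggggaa

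RefSeq promoters were matched to 47 of the 53 members, and those of PCDHA3, PCDHA13, PCDHB6, PCDHB11, PCDHGA12 and PCDHGC5 were not used here. CGCT was found on either strand in 46 of the 47 windows (97.9%), against 70% of all 35116 RefSeq promoters of the same length. The gamma B promoters held a median of 4 copies and the variable alpha promoters a median of 1, beside a median of 2 both over the 47 members and over all promoters. At least 3 copies were held by 34% of the members and 38.2% of all promoters. The 42 variable promoters matched (PCDHB1 left out) were poor in G and C, with a median of 38.7% and a median of 7 CpG dinucleotides, whereas the 4 C-type promoters matched had a median of 61.8% and 20.5 CpG dinucleotides. Over all promoters the medians were 58.7% and 14. A match to these 4 letters describes the sequence and is not evidence of the longer element or of a bound factor.

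The targeted gene was measured first. EZH2 RNA ranged from 59.5 to 68.6 RPM (reads on the gene per 1000000 reads of the library) in EZH2+/+, 45.7 to 55.4 in EZH2-/+, 8.65 to 11.5 in EZH2-/- and 256 to 385 in EZH2-/- +EZH2 libraries. It was lower in EZH2-/- than in EZH2+/+ (log2 fold change -2.68, adjusted p = 5.05e-06) and higher in the restored cells than in EZH2+/+ (2.23, adjusted p = 3.83e-05). Genes were compared with limma on log2(RPM + 0.1), which understates the change of low genes, with Benjamini-Hochberg adjustment over the 20608 genes that averaged at least 0.1 RPM. Between 16587860 and 36589089 reads per library lay on genes, so that 3 reads, taken as the floor for counting error alone, stood for 0.0528 to 0.12 RPM. Of 8 embryonic stem cell markers, all were detected, and their summed level was 3303 to 4266 RPM in EZH2+/+ and 3971 to 4314 RPM in EZH2-/- libraries, although POU5F1, EPCAM, DPPA4 and NANOG were called higher and PODXL and SOX2 lower in EZH2-/- cells. Of the clustered protocadherins, 15 alpha, 12 beta and 22 gamma genes passed the filter, 49 in all, and PCDHB6, PCDHB7, PCDHB8 and PCDHB12 did not.

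Reads of the common exons were counted for every member of the alpha and of the gamma cluster, and this shaped each measurement. In the GENCODE annotation the exons present in all 15 alpha genes cover 2869 bases, and those present in all 22 gamma genes cover 2177 bases. Across the 12 libraries, the RPM of 2 alpha genes correlated with a median r of 0.984 over 105 pairs, and that of 2 gamma genes with a median r of 0.997 over 231 pairs, whereas 2 beta genes, which share no exon, had a median r of 0.203 over 66 pairs. These are correlations across libraries that also share depth and genotype, and they are given as a description. In each library the lowest member stood at 88.4% to 99.0% of the median member in the alpha cluster and at 98.4% to 99.7% in the gamma cluster. The level of the lowest member is therefore the most that shared reads can add to every gene, and it serves here as the level of the common part of each cluster. Counting ignored strand, so antisense transcripts overlapping a member cannot be told apart from it.

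The common part of the gamma cluster was lower in every edited genotype. It stood at 60.9, 60.1 and 53.1 RPM in the EZH2+/+ libraries, 34.01, 25.8 and 36.0 in EZH2-/+, 26.4, 23.1 and 24.3 in EZH2-/-, and 36.7, 23.9 and 31.7 in EZH2-/- +EZH2. No edited library reached the lowest EZH2+/+ library. The common part of the alpha cluster moved the other way in EZH2-/- cells, from 8.61, 9.28 and 9.68 RPM in EZH2+/+ to 18.05, 17.9 and 12.02 RPM. It stood at 10.3, 12.5 and 7.93 RPM in EZH2-/+ and at 13.9, 13.3 and 12.03 RPM in EZH2-/- +EZH2, so that EZH2-/+ overlapped with EZH2+/+, every EZH2-/- and every restored library exceeded the highest EZH2+/+ library, and EZH2-/- overlapped with the restored cells through its replicate 3.

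**Figure D1:**
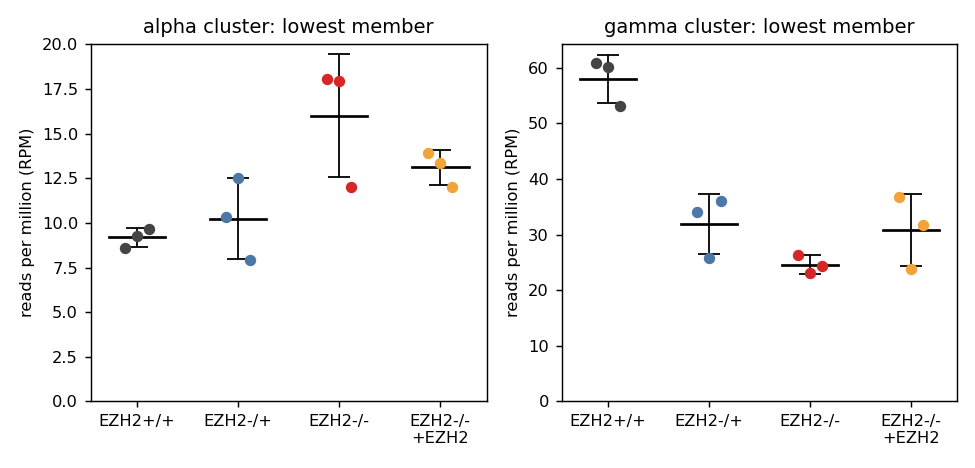
RNA level of the lowest member of the alpha (left) and gamma (right) cluster in RPM on the vertical axis, by EZH2 genotype on the horizontal axis, with 1 point per library and the mean and SD (n = 3) as lines. The gamma level averages 58.0 RPM in EZH2+/+ and 24.6 to 31.9 RPM in the edited lines, while the alpha level averages 9.19 RPM in EZH2+/+ and 16.0 RPM in EZH2-/-.

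Taken with all their reads, alpha genes rose and gamma genes fell between EZH2+/+ and EZH2-/- cells. All 22 gamma genes were called lower (median log2 fold change -1.23, range -1.41 to -0.92, adjusted p 0.000144 to 0.00237), beside 18.8% of all genes tested. Of the 15 alpha genes, 13 were called higher (median 0.75, range 0.48 to 1.12), beside 12.6% of all genes tested, and PCDHA6 and PCDHA12 were not (adjusted p = 0.113 and 0.0683). Since most reads of each gene were common to its cluster, these calls are largely repeats of 2 measurements and not 35 independent ones. The median over all genes tested was -0.13, and rescaling each library by its median ratio moved it to -0.01, with 3378 genes called higher and 2822 lower in place of 2593 and 3870; all 22 gamma genes stayed lower, with a median of -1.10, and all 15 alpha genes were then higher, with a median of 0.87. The alpha calls moved with single libraries: 7 of the 15 were called without EZH2-/- replicate 1, 3 (PCDHA9, PCDHA10 and PCDHAC2) without EZH2-/- replicate 2, and 8 without EZH2+/+ replicate 1. With the replicate number as a block, PCDHA6, PCDHA12 and PCDHB2 were also called higher (adjusted p = 0.0292, 0.00578 and 0.0339), beside 17.3% of all genes in that fit.

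Of the gamma genes, 21 of 22 were also lower in EZH2-/+ than in EZH2+/+ cells (median -0.87), beside 0.966% of all genes tested, and PCDHGA10 missed the threshold (adjusted p = 0.0538, 0.0115 with the replicate block). That count fell to 0 when only the 6 libraries of these genotypes were fitted or when replicate 1 or 2 of either genotype was left out, to 4 without EZH2+/+ replicate 3 and to 2 (PCDHGB7 and PCDHGC3) after rescaling by the median ratio. No alpha or beta gene was called by limma in this comparison, beside 1.15% of all genes called in either direction. Nor did any reach an unadjusted p under 0.05, beside 509 genes higher and 1672 lower of all 20608 at that level. In EZH2-/- +EZH2 against EZH2+/+ cells, all 22 gamma genes were lower (median -0.93, range -1.06 to -0.75), beside 6.9% of all genes tested. No alpha gene was called there by limma (median 0.49, beside 3.4% of all genes tested), although 11 were higher at an unadjusted p under 0.05, beside 1532 of all 20608 genes. With the replicate number as a block 9 were called higher, beside 6.26% of all genes in that fit. Leaving out replicate 3 of every genotype gave 14 members higher in all, beside 1642 of the 20608 genes. Restoring EZH2 moved neither common part past the threshold: against EZH2-/- +EZH2, EZH2-/- cells had 0 of 49 members called by limma, beside 3.15% of all genes tested, with a median of 0.27 for alpha and -0.30 for gamma genes. At an unadjusted p under 0.05, 3 beta genes were higher and 2 gamma genes lower, beside 2224 higher and 1236 lower of all 20608 genes. These comparisons share their EZH2+/+ or EZH2-/- libraries.

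To reach the genes' own exons, the reads of the lowest member were subtracted from every member of its cluster in each library. The lowest member itself was thereby left with no reads in that library. This was chosen after the data had been seen, and the remainder, termed reads above the lowest member, holds reads of a gene's own exons, of any overlapping antisense transcript and of exons shared with some other members. In the GENCODE annotation such partly shared exons cover 2266 bases between PCDHGB4 and PCDHGA8, 562 bases between PCDHA2 and PCDHA3, and 142 bases between PCDHA10 and its neighbours PCDHA11 and PCDHA12. In the resulting fit 13 alpha and 15 gamma genes had enough reads. The sign in EZH2-/- against EZH2+/+ cells then differed from the whole-gene sign for 6 of 13 alpha and 6 of 15 gamma genes. The 6 alpha genes were PCDHA1, PCDHA2, PCDHA3, PCDHA4, PCDHA6 and PCDHA7. PCDHA1 was itself the lowest member in EZH2-/- replicate 1, and PCDHA7 in EZH2-/- replicate 3. The subtraction left them no reads there, so the change of sign of PCDHA1 and PCDHA7 is partly fixed by construction. In EZH2-/- against EZH2+/+ cells 2 alpha genes rose, 2 fell and 9 did not pass, and 5 gamma genes rose, 5 fell and 5 did not pass, beside 12.5% higher and 18.7% lower of the 20599 genes in that fit.

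**Figure D2:**
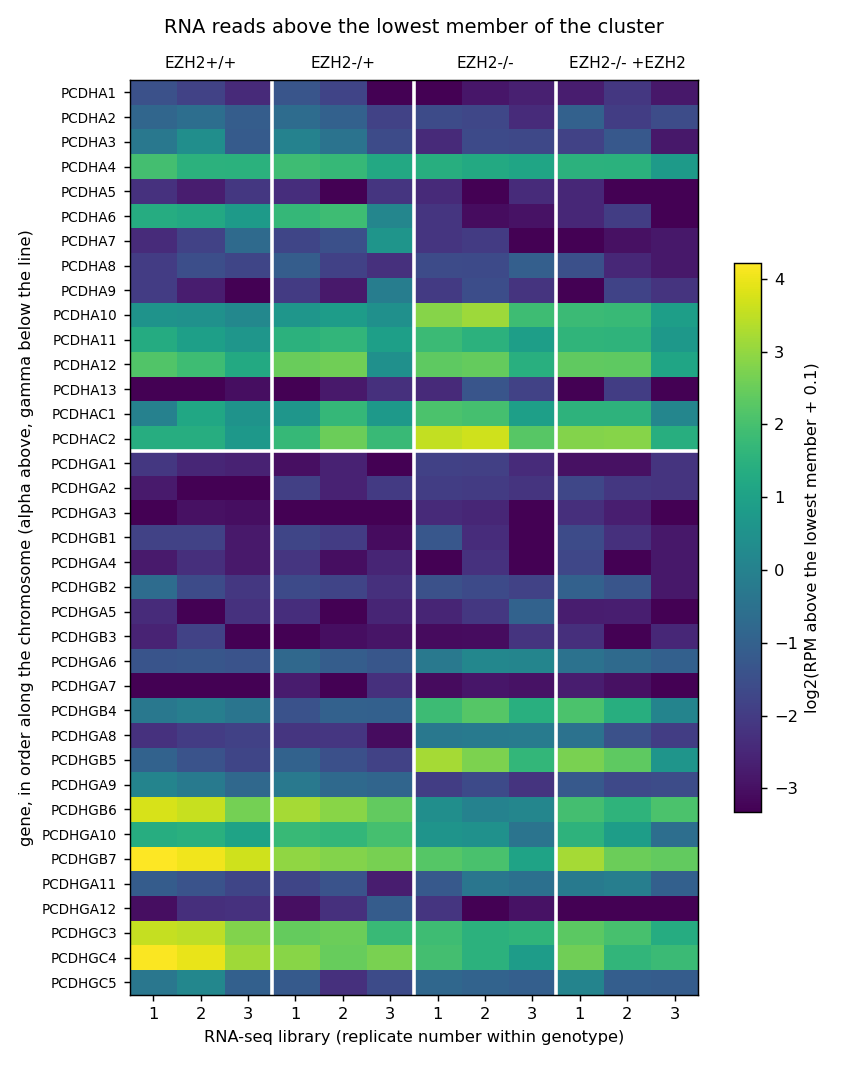
Reads above the lowest member of the cluster, as log2(RPM + 0.1) by colour, for each alpha and gamma gene in order along the chromosome (vertical axis) and each of the 12 libraries grouped by EZH2 genotype (horizontal axis). PCDHA6 is dark in all EZH2-/- and EZH2-/- +EZH2 libraries, PCDHA10, PCDHAC2, PCDHGB4 and PCDHGB5 are brighter in EZH2-/- than in EZH2+/+ libraries, and PCDHGB6, PCDHGB7 and PCDHGC4 are darker.

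Among the variable alpha genes, PCDHA6 and PCDHA10 moved in opposite directions. PCDHA6, whose symbol was singled out after its values were seen, had 109, 89 and 74 reads above the lowest member in the EZH2+/+ libraries and 129, 165 and 56 in EZH2-/+. It had 7, 1 and 1 in EZH2-/- and 3, 6 and 0 in EZH2-/- +EZH2. Every library of both these genotypes lay below every EZH2+/+ and EZH2-/+ library. The fitted log2 fold change was -3.84 ± 0.48 (SE, adjusted p = 0.000174) in EZH2-/- and -3.70 (adjusted p = 0.000897) in the restored cells against EZH2+/+, and its size depends on the pseudocount because the low libraries are at or near the floor of 3 reads. PCDHA10 had 62, 52 and 48 reads in EZH2+/+, 60, 78 and 72 in EZH2-/+, 401, 459 and 121 in EZH2-/- and 132, 123 and 44 in EZH2-/- +EZH2. On the RPM scale it averaged 1.25 ± 0.175, 1.48 ± 0.202, 6.42 ± 2.57 and 2.82 ± 0.917 (SD, n = 3). The rise in EZH2-/- against EZH2+/+ was 2.19 ± 0.34 on the log2 scale (SE, adjusted p = 0.00057), and the difference from the restored cells was 1.13 (adjusted p = 0.0957, 0.0121 with the replicate block). The share of the alpha cluster's reads above the lowest member that fell on PCDHA10 averaged 7.22% in EZH2+/+ and 21.3% in EZH2-/- libraries, and that on PCDHA6 12.03% and 0.191%.

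The other variable alpha genes changed less. PCDHA3, also named after its values were seen, was called lower (-1.56, adjusted p = 0.0403) but kept that call in 1 of the 6 fits that each left out 1 library. PCDHA2 missed the threshold (-1.07, adjusted p = 0.0511) and passed it with the replicate block (adjusted p = 0.0173). PCDHA12 had 200, 141 and 104 reads above the lowest member in EZH2+/+ and 283, 281 and 87 in EZH2-/-, and its groups overlapped (0.30, adjusted p = 0.708). PCDHA4, singled out after its values were seen because it held 17.9% of these reads in EZH2+/+, went from 2.69 to 3.77 RPM to 2.08 to 2.53 RPM and did not pass (-0.40, adjusted p = 0.27). PCDHA8, PCDHA9 and PCDHA13, named for the size or the adjusted p of their whole-gene changes, had at most 0.336 RPM above the lowest member in any genotype on average.

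Of the alpha C-type genes, PCDHAC2 was higher in EZH2-/- than in EZH2+/+ cells. It had 112, 99 and 69 reads above the lowest member in EZH2+/+, 130, 263 and 190 in EZH2-/+, 652, 679 and 157 in EZH2-/- and 272, 267 and 64 in EZH2-/- +EZH2. All EZH2-/- libraries lay above all EZH2+/+ libraries in read count, and on the RPM scale the means were 2.17 ± 0.572 and 9.63 ± 4.35 (SD, n = 3). The log2 fold change was 2.01 ± 0.45 (SE, adjusted p = 0.00528), against 1.12 ± 0.25 (adjusted p = 0.00494) when all reads were counted. The restored cells averaged 5.57 ± 2.61 RPM (SD). The difference of EZH2-/- from them did not pass (0.79, adjusted p = 0.406, 0.0768 with the replicate block). PCDHAC1 averaged 1.47 RPM in EZH2+/+ and 3.29 RPM in EZH2-/- cells, a log2 fold change of 1.11 that missed the threshold (adjusted p = 0.0911) and passed it with the replicate block (adjusted p = 0.0202).

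In the gamma cluster the genes that rose had few reads in EZH2+/+ cells, and those that fell included its 2 most read gamma B genes. PCDHGB5 had 19, 11 and 9 reads above the lowest member in EZH2+/+, 17, 12 and 10 in EZH2-/+, 518, 349 and 104 in EZH2-/- and 247, 184 and 36 in EZH2-/- +EZH2. Every library of the last 2 genotypes exceeded every library of the first 2, with means of 0.299 ± 0.114 RPM in EZH2+/+ and 6.25 ± 3.02 RPM in EZH2-/- (SD, n = 3). The log2 fold change against EZH2+/+ was 3.90 ± 0.52 (SE, adjusted p = 0.000261) in EZH2-/- and 3.24 (adjusted p = 0.00282) in the restored cells. PCDHGB4 rose from 32, 33 and 30 reads to 198, 242 and 88 (2.10, adjusted p = 0.00273), PCDHGA8 from 5, 6 and 8 to 40, 40 and 26 (1.78, adjusted p = 0.00469) and PCDHGA6 from 13, 12 and 13 to 41, 55 and 33 (1.35, adjusted p = 0.00293). PCDHGB4 and PCDHGA8 share exons in the GENCODE annotation, so their rises are not fully separate measurements. These 4 genes are close neighbours, from PCDHGA6 to PCDHGB5, although PCDHGA7, which lies among them, had too few reads to be fitted. The 4 genes kept their call in all 6 fits that each left out 1 library, whereas PCDHGA2 (1.10, adjusted p = 0.0183) kept it in 3. PCDHGA2 was itself the lowest member in EZH2+/+ replicates 2 and 3, so the subtraction left it no reads there. It averaged 0.0148 RPM in EZH2+/+ and passed the filter of 0.1 RPM through the edited genotypes. Its rise is therefore partly fixed by construction.

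PCDHGB6 lies next but one to PCDHGB5 and moved the other way. It had 600, 471 and 282 reads above the lowest member in EZH2+/+, 371, 335 and 292 in EZH2-/+, 69, 49 and 34 in EZH2-/- and 149, 108 and 103 in EZH2-/- +EZH2. The EZH2-/- libraries lay below all others, and the restored libraries lay between them and the first 2 genotypes. The log2 fold change was -3.14 ± 0.30 (SE, adjusted p = 3.28e-05) in EZH2-/- against EZH2+/+ and -1.69 ± 0.30 (adjusted p = 0.0117) in EZH2-/- against EZH2-/- +EZH2, where PCDHGB6 was the 1 member called, beside 0.534% of genes called lower in that fit; the latter call was lost without EZH2-/- replicate 2 (adjusted p = 0.0692). PCDHGB7 had 832, 653 and 574 reads in EZH2+/+, 314, 322 and 349 in EZH2-/+, 263, 215 and 67 in EZH2-/- and 351, 210 and 130 in EZH2-/- +EZH2. Its log2 fold change was -2.19 ± 0.30 (SE, adjusted p = 0.000313) in EZH2-/- and -1.27 (adjusted p = 0.0201) in the restored cells against EZH2+/+. PCDHGA9 fell from 43, 30 and 22 reads to 9, 12 and 4 (-1.61, adjusted p = 0.00255), while PCDHGA10, with 112, 104 and 90 reads in EZH2+/+ and 80, 70 and 22 in EZH2-/-, was called with the replicate block but not without it (-1.06, adjusted p = 0.0916, 0.0331 with the block). PCDHGA11 had 0.277 RPM in EZH2+/+ and 0.535 RPM in EZH2-/- cells (0.73) and did not pass.

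Of the gamma C-type genes, which carry the best-studied neuronal survival role of the cluster in PCDHGC4, PCDHGC3 and PCDHGC4 fell. PCDHGC4 had 806, 610 and 400 reads above the lowest member in EZH2+/+, 298, 249 and 362 in EZH2-/+, 215, 149 and 57 in EZH2-/- and 229, 113 and 85 in EZH2-/- +EZH2. PCDHGC3 had 519, 427 and 309 reads in EZH2+/+, 218, 262 and 189 in EZH2-/+, 201, 149 and 99 in EZH2-/- and 191, 149 and 61 in EZH2-/- +EZH2. In both genes every edited library lay below every EZH2+/+ library. The log2 fold changes in EZH2-/- against EZH2+/+ were -2.31 ± 0.34 (SE, adjusted p = 0.000478) and -1.59 ± 0.30 (adjusted p = 0.00198), and both held in all 6 fits that each left out 1 library. PCDHGC5 was low throughout, with 31, 40 and 18 reads in EZH2+/+ and 27, 23 and 13 in EZH2-/- (-0.51, adjusted p = 0.369). The C-type genes thus differed by cluster, with PCDHAC2 higher and PCDHGC3 and PCDHGC4 lower in EZH2-/- cells.

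In EZH2-/+ against EZH2+/+ cells no alpha or gamma gene was called by limma on reads above the lowest member (smallest adjusted p = 0.115, PCDHGB7), beside 0.985% of genes called in either direction. At an unadjusted p under 0.05, 1 gamma gene (PCDHGA2) was higher and 4 were lower, beside 510 higher and 1653 lower of all 20599 genes. The subtraction left PCDHGA2 no reads in EZH2+/+ replicates 2 and 3, so this rise too is partly fixed by construction. With the replicate block PCDHGB7, PCDHGC3 and PCDHGC4 were called lower, beside 1.97% of genes in that fit. In EZH2-/- +EZH2 against EZH2+/+ cells, PCDHGA2, PCDHGB4 and PCDHGB5 were higher, and PCDHA6, PCDHGA9, PCDHGB6, PCDHGB7, PCDHGC3 and PCDHGC4 were lower, beside 3.4% higher and 6.78% lower of all genes in that fit. Of these 9, PCDHA6, PCDHGB5 and PCDHGC4 kept their call in all 6 fits that each left out 1 library, and the other 6 genes in 1 to 4 of them. The call of PCDHGA2 is again partly fixed by construction, since it was itself the lowest member in EZH2+/+ replicates 2 and 3. With the replicate block PCDHA10 and PCDHAC2 were also called higher (adjusted p = 0.00672 and 0.007) and PCDHA3 and PCDHB9 lower (adjusted p = 0.0159 and 0.0284) in the restored cells, beside 1284 genes higher and 3294 lower of the 20599 in that fit. In EZH2-/- against the restored cells that block added PCDHA10, PCDHGB7 (-0.92, adjusted p = 0.0149) and PCDHB15, beside 1277 genes higher and 663 lower of the 20599.

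The beta genes, which share no exon, were measured one by one and were low, with a summed level of 10.9 ± 2.78 RPM in EZH2+/+ cells, 10.9 ± 1.92 RPM in EZH2-/+ cells, 13.3 ± 2.14 RPM in EZH2-/- cells and 9.78 ± 2.04 RPM after restoration (SD, n = 3). PCDHB2 took 57.4% of the beta reads in EZH2+/+ and 65.3% in EZH2-/- libraries. Its level was 6.88, 7.56 and 4.33 RPM in EZH2+/+ and 9.09, 9.48 and 7.36 RPM in EZH2-/-, where the groups overlapped (0.49 ± 0.24, SE, adjusted p = 0.135, 0.0339 with the replicate block). PCDHB3 stood at 0.577, 0.659 and 0.765 RPM in EZH2+/+ and 1.02, 0.901 and 0.891 RPM in EZH2-/- (0.44, adjusted p = 0.224).

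Of the 12 beta genes tested, 2 rose and 2 fell in EZH2-/- against EZH2+/+ cells, shares close to the 12.6% higher and 18.8% lower of all genes tested. PCDHB15 stood at 0.244, 0.254 and 0.109 RPM in EZH2+/+, 0.862, 1.014 and 0.416 in EZH2-/- and 0.283, 0.268 and 0.040 in EZH2-/- +EZH2. All EZH2-/- libraries lay above both other groups, and the log2 fold change was 1.48 ± 0.45 (SE, adjusted p = 0.0245) against EZH2+/+ and 1.60 ± 0.45 against the restored cells, which missed the threshold (adjusted p = 0.0766) and passed it with the replicate block (adjusted p = 0.00636). PCDHB5 rose from 0.133, 0.051 and 0.087 RPM to 0.422, 0.469 and 0.534 RPM (1.61 ± 0.45, SE, adjusted p = 0.016). PCDHB9 and PCDHB10, whose gene models overlap, fell by 1.31 and 1.28 on the log2 scale (adjusted p = 0.0362 and 0.0226), from 0.350 to 0.482 RPM to 0.075 to 0.194 RPM and from 0.503 to 1.24 RPM to 0.148 to 0.469 RPM. None of the 4 calls held in all 6 fits that each left out 1 library: PCDHB5 lost it without EZH2+/+ replicate 2, PCDHB15 without EZH2-/- replicate 1 or 2 or EZH2+/+ replicate 3, PCDHB10 without EZH2-/- replicate 3 or EZH2+/+ replicate 1 or 2, and PCDHB9 in every fit except that without EZH2-/- replicate 1. The model of PCDHB3 overlaps PCDHB5, and genes on the minus strand overlap all 6 beta genes named here.

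**Figure D3:**
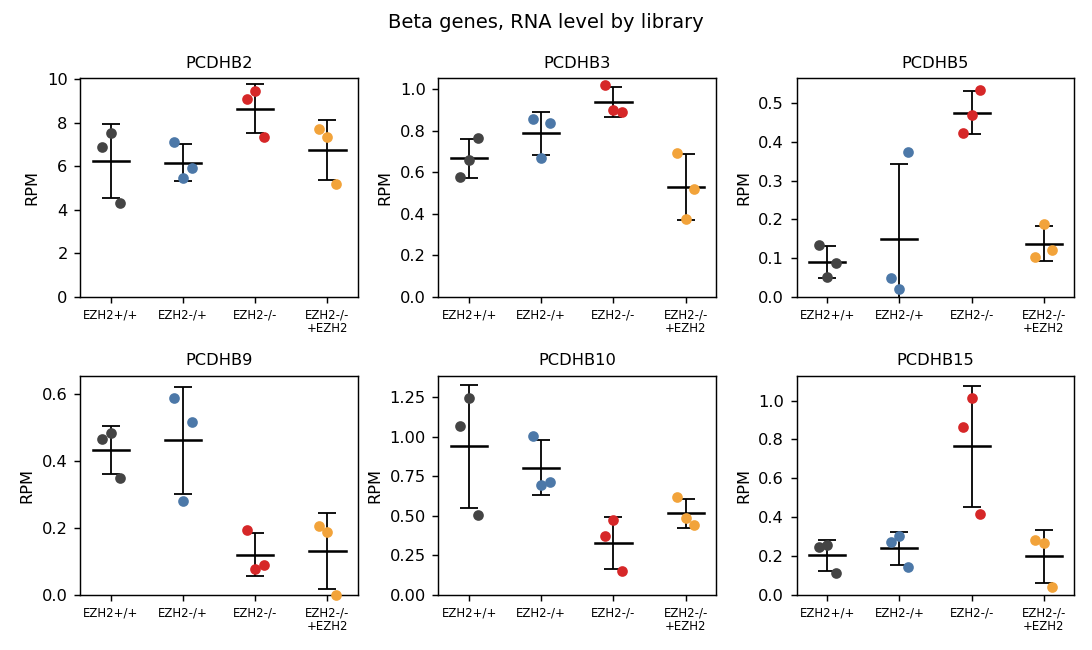
RNA level in RPM (vertical axes, each with its own scale from 0) of 6 beta genes by EZH2 genotype (horizontal axes), with 1 point per library and the mean and SD (n = 3) as lines. PCDHB5 and PCDHB15 are higher in EZH2-/- than in EZH2+/+ libraries without overlap, PCDHB9 and PCDHB10 are lower without overlap, and PCDHB2 overlaps.

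At the promoters, H3K27me3 separated the C-type genes and PCDHB1 from all other members. For each gene the 5 kb window around an annotated start with the most H3K27me3 in EZH2+/+ cells was used. This choice by itself favours a fall of H3K27me3 from EZH2+/+ to the other genotypes. The same holds for all gene names, more so where a gene has more windows. Since a genotype has 1 averaged column, no test was possible. PCDHAC1 carried 11.7 RPM of H3K27me3 in EZH2+/+, 8.83 RPM in heterozygous, 0.97 RPM in EZH2-/- and 6.28 RPM in the restored cells, and PCDHAC2 carried 11.96, 9.12, 0.90 and 5.33 RPM. The loss between EZH2+/+ and EZH2-/- was -3.46 and -3.60 on the log2(RPM + 0.1) scale. PCDHGC3, PCDHGC4, PCDHGC5 and PCDHB1 began lower, at 4.19 to 5.46 RPM, fell to 0.98 to 1.23 RPM in EZH2-/- (-1.79 to -2.09) and stood at 4.23 to 6.51 RPM after EZH2 was restored. All 6 genes lost at least 1 log2 unit, as did 48% of the 35683 gene names with a window. PCDHAC1, PCDHAC2 and PCDHB1 were the only members to meet the definition of an H3K27me3-marked promoter used here (log2 of RPM per kb above 0.1, with input below 0.1), which 6235 gene names met, with a median change of -3.67.

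At the other 47 promoters, those of the variable genes, the median share of H3K27me3 reads was higher in EZH2-/- cells, which on this scale does not show that the mark was kept. Their H3K27me3 was low in EZH2+/+ cells, at a median of 2.44 RPM, and stood at 2.19 RPM in heterozygous, 3.51 RPM in EZH2-/- and 2.51 RPM in the restored cells. The median change between EZH2+/+ and EZH2-/- was 0.60 on the log2 scale, 41 of the 47 were higher, beside 20.9% of all gene names, 7 rose by at least 1, beside 3.37%, and 0 fell by as much. Over all gene names the median change was -0.94, and over the 29425 without H3K27me3 in EZH2+/+ cells it was -0.67, with 25.03% higher. Relative to input the variable promoters stood at a median of 1.67 in EZH2+/+ and 2.44 in EZH2-/- cells. The columns are scaled to equal totals, so these values are shares of the reads and show an unequal change between regions. Whether the scaling accounts for the higher share at the variable promoters was not tested. The largest changes in each direction were those of PCDHA3, which went from 0.88 to 2.91 RPM (1.62), and PCDHA10, from 2.30 to 1.33 RPM (-0.74). PCDHB14 went from 0.98 to 2.502 RPM (1.27), PCDHB16 from 3.03 to 2.25 RPM (-0.42), PCDHGB5 from 2.44 to 5.17 RPM (1.05), PCDHGB7 from 3.74 to 3.02 RPM (-0.30) and PCDHGA9 from 2.72 to 5.58 RPM (1.009), while PCDHGA11 stood at 5.03 and 5.01 RPM. EZH2 ChIP-seq in EZH2+/+ cells gave 0.225 to 0.44 RPM at the 6 C-type and PCDHB1 promoters and a median of 0.118 RPM at the 47 variable promoters, beside 0.29 RPM over all gene names and 0.837 RPM over the H3K27me3-marked promoters.

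**Figure D4:**
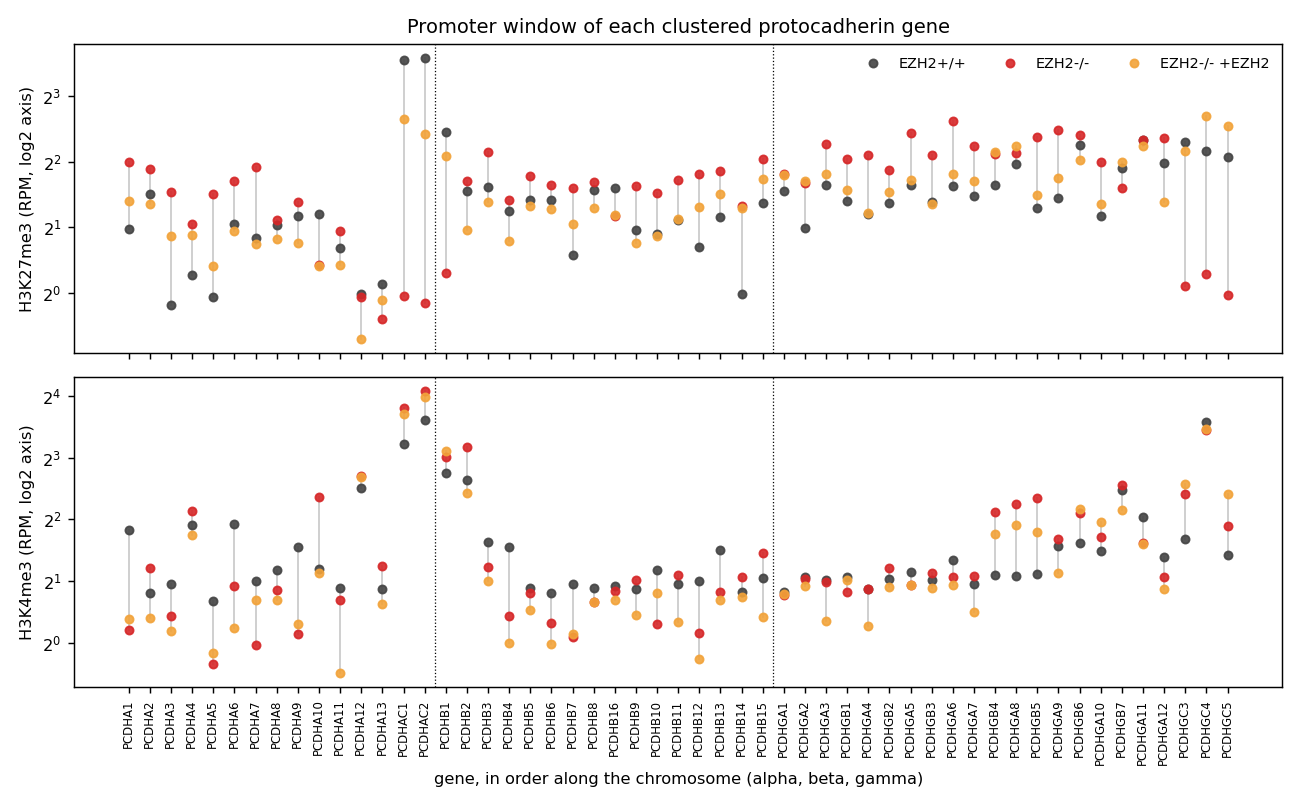
H3K27me3 (above) and H3K4me3 (below) in RPM, on log2 axes, in the promoter window of each of the 53 genes in order along the chromosome, in EZH2+/+, EZH2-/- and EZH2-/- +EZH2 cells, with 1 point per genotype and no replicates. H3K27me3 is near 1 RPM in EZH2-/- cells at the 5 C-type promoters and PCDHB1, whereas 41 of the other 47 promoters lie higher in EZH2-/- than in EZH2+/+ cells.

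H3K4me3, a mark of active or poised promoters, was set beside the RNA. The EZH2+/+ column is shallow, in which 1 RPM stood for 3.43 reads against 10.3 to 17.4 in the other genotypes, and counting error in it is accordingly larger. PCDHA6 had 3.78 RPM in EZH2+/+, 4.23 RPM in heterozygous, 1.89 RPM in EZH2-/- and 1.18 RPM in the restored cells. Its RNA reads above the lowest member grouped the genotypes in the same way. PCDHA10 had 2.30, 1.05, 5.14 and 2.196 RPM, and PCDHGB5 had 2.16, 1.52, 5.09 and 3.45 RPM. In EZH2-/- against EZH2+/+ cells the log2 changes were -0.97, 1.13 and 1.20. PCDHGB4 (0.99) and PCDHGA8 (1.14), whose windows overlap, also gained the mark. Of the 53 members 3 gained at least 1 log2 unit (PCDHA10, PCDHGA8 and PCDHGB5) and 3 lost as much (PCDHA1, PCDHA9 and PCDHB4), beside 2.47% and 12.6% of all gene names. The mark did not follow RNA everywhere: PCDHGB6 had 3.08, 7.52, 4.28 and 4.47 RPM, PCDHGB7 5.58, 5.63, 5.91 and 4.44 RPM, and PCDHGC4 11.99, 17.5, 10.9 and 11.03 RPM, although their reads above the lowest member fell in EZH2-/- cells. Over the 32 variable alpha and gamma genes, the RNA above the lowest member and H3K4me3 had a Spearman correlation of 0.515 in EZH2+/+ cells, 0.501 in EZH2-/+ cells, 0.656 in EZH2-/- cells and 0.646 in the restored cells, and RNA and H3K27me3 one of -0.07, -0.16, -0.20 and 0.16. The coefficients of the changes were lower: that of the RNA change with the H3K4me3 change was 0.275 in EZH2-/- against EZH2+/+, -0.10 in EZH2-/+ against EZH2+/+, 0.33 in the restored cells against EZH2+/+ and 0.02 in EZH2-/- against the restored cells. These are correlations across genes, many with overlapping windows, and are descriptions.

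**Figure D5:**
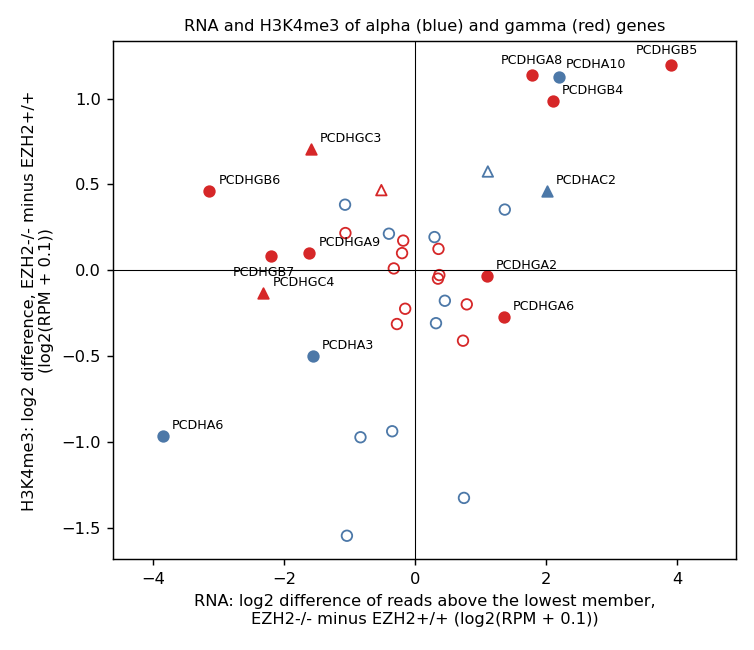
Change between EZH2+/+ and EZH2-/- cells in reads above the lowest member (horizontal axis, log2 of RPM + 0.1) and in promoter H3K4me3 (vertical axis, the same scale) for alpha (blue) and gamma (red) genes. Triangles are C-type genes, and filled symbols are genes whose RNA change had an adjusted p under 0.05. PCDHGB5, PCDHA10, PCDHGB4 and PCDHGA8 lie in the upper right and PCDHA6 in the lower left, while PCDHGB6, PCDHGB7 and PCDHGC3 lost RNA with a change of 0.08 to 0.71 in H3K4me3.

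H3K27ac, a mark of active promoters and enhancers, was higher in EZH2-/- than in EZH2+/+ cells at all 5 C-type promoters (median log2 change 0.52) and at PCDHB1 (0.95), as it was at 70.8% of all gene names. PCDHAC1 went from 1.71 to 3.21 RPM and PCDHAC2 from 1.84 to 2.81 RPM, while PCDHGC3 went from 2.10 to 2.53 RPM and PCDHGC4 from 2.92 to 3.76 RPM. H3K27ac was thus higher at the 2 alpha genes, of which PCDHAC2 rose in RNA, and at these 2 gamma genes, which fell. Promoters without H3K27me3 in EZH2+/+ cells had a median log2 change of 0.24. Whether the gamma genes gained more than this general shift was not tested. Among the variable promoters PCDHB2 gained most, from 1.24 to 3.01 RPM (1.22), and the median over the 47 was -0.02. H3K4me1 stood at a median of 3.86 RPM at the C-type and 0.615 RPM at the variable promoters in EZH2+/+ cells, and at 6.19 and 0.615 RPM in EZH2-/- cells.

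Genes known to act on or with the clusters were counted from lists, to be read beside the 12.6% higher and 18.8% lower of all genes tested in EZH2-/- against EZH2+/+ cells. Of 21 chromatin regulators of the clusters, 3 were lower in EZH2-/- against EZH2+/+ cells, the cohesin subunit RAD21 (-0.67, adjusted p = 0.00739), the H3K9 methyltransferase SETDB1 (-0.49, adjusted p = 0.0243) and the DNA demethylation enzyme TET1 (-0.90, adjusted p = 0.0401). With the replicate block 7 were lower, beside 5773 of all 20608 genes in that fit. CTCF did not pass (0.02, adjusted p = 0.936). In the other 3 comparisons limma without the block called 0 of the 21, and with the block it called 2 lower in the restored against EZH2+/+ cells, beside 3321 of all 20608 genes. Of 11 protocadherins outside the clusters, PCDH19 rose (2.43, adjusted p = 0.00139) and PCDH7, PCDH8 and PCDH18 fell (-3.12, -2.27 and -1.46, adjusted p = 0.00342, 0.00371 and 0.00209). Of 17 partners of the clustered protocadherins in adhesion and signalling, CDH1, which encodes E-cadherin, rose (1.57, adjusted p = 0.000587) and 7 fell, among them CDH2, which encodes N-cadherin (-1.36, adjusted p = 0.000827), and the kinase FYN (-0.82, adjusted p = 0.00191). Of 35 tested genes within 500 kb of the clusters or between them, 3 rose and 4 fell, from -1.09 (TMCO6) to 0.62 (DIAPH1), and limma without the block called 0 in the other 3 comparisons. With the block 5 rose and 7 fell in EZH2-/- against EZH2+/+ cells, beside 3566 higher and 5773 lower of all 20608 genes in that fit. With it 3 were lower in EZH2-/- against the restored cells, beside 661 of all genes, and 2 in the restored against EZH2+/+ cells, beside 3321.

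Markers of other cell types moved with the genotypes, and their part in the protocadherin results was not tested. In bulk samples fewer cells of a type and less RNA per cell cannot be told apart. Of 8 neural markers tested, SOX1, PAX6, MAP2 and DCX were lower and NES was higher in EZH2-/- against EZH2+/+ cells, with a summed level over the list of 426 to 505 RPM in EZH2+/+, 336 to 397 in EZH2-/+, 471 to 526 in EZH2-/- and 300 to 422 in EZH2-/- +EZH2 libraries. SOX1, a defining marker, stood at 3.50 to 9.41 RPM in EZH2+/+, 0.194 to 1.09 in EZH2-/+, at most 0.0297 in EZH2-/- and 0.12 to 0.206 in EZH2-/- +EZH2 and was the 1 marker of the list called in EZH2-/+ cells. Endoderm markers rose in 3 of 5 (13.5 to 25.6 RPM in EZH2+/+, 68.3 to 133 in EZH2-/- in sum), mesoderm markers in 4 of 5 (41.2 to 64.4 and 107 to 148 RPM), and of 7 fibroblast markers 4 rose and 1 fell (290 to 365 and 305 to 556 RPM).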

How the data were processed

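RNA-seq covered 12 libraries, 3 for each of 4 EZH2 genotypes, and ChIP-seq 21 columns, grouped by the labels. Per the study's methods, the authors trimmed reads with Trim Galore 0.4.0, aligned RNA-seq reads to GRCh38 with TopHat2 2.0.12 and ChIP-seq reads with Bowtie2 2.2.5, and counted in SeqMonk, for RNA without regard to strand over Ensembl gene models. Both tables were deposited by the authors as log2 values of reads per 1000000 (RPM), the ChIP-seq table in windows 2.5 kb to either side of gene starts, with 2 libraries named by the labels per histone or input column. RNA values below 1000 reads fell on whole reads within 0.02 in 100% of 207401 cases, which gave the read numbers, and a gene without a read was set to 0.

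Values were returned to RPM, and the 20608 of 35805 genes that averaged 0.1 RPM or more were fitted with limma 3.58.1 in R 4.3.3 on log2(RPM + 0.1), with all 12 libraries, a mean-variance trend and Benjamini-Hochberg adjustment. The threshold was an adjusted p of 0.05. The fit was tested on simulated data. ChIP-seq columns have no replicates and were compared without a test. Tables were handled in Python 3.11.15 with pandas 2.3.3. Intervals and floors cover counting error only.

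The replicate numbers paired the libraries: deviations from the genotype means correlated in all 18 pairs of the same number (0.107 to 0.56, mean 0.332), against a mean of -0.159 in 36 pairs of different numbers. The deviations of a genotype cancel out, so a positive mean in the former brings a negative mean in the latter. For 11 of 12 libraries the mean correlation was highest with the libraries of their own number. A fit with the number as a block, a median-ratio rescaling, other pseudocounts and filters, fits of 6 libraries, fits without single libraries and reads above the lowest member were alternatives.

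Members and gene lists were chosen with earlier results of these data known. Named with values were the C-type genes, the most abundant and most changed members of each group, and at most 25 called members by adjusted p. Higher calls among the listed chromatin regulators are not reported here.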

Additional observations from a re-analysis of the deposited data

How the results depend on the processing

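Under the alternatives 99 counts of called members stayed within 1.5 times the reported count and 29 did not. Deposited log2 values do not serve edgeR or DESeq2, which were not run. In EZH2-/- against EZH2+/+, leaving out 1 library gave 4 to 17 members higher, and reads above the lowest member gave 9 higher and 9 lower, or 11 lower with the replicate block. In EZH2-/+ against EZH2+/+ the lower count was 2 after median-ratio rescaling, 0 with only the 6 libraries compared, 0 to 22 without 1 library, 0 by reads above the lowest member and 3 with the replicate block added. In EZH2-/- +EZH2 against EZH2+/+ the higher count was 3 after rescaling, 2 with 6 libraries, 9 with the replicate block, 14 without replicate 3 of every genotype, and 3 by reads above the lowest member or 5 with the block added, where the lower count was 6 and 8. In EZH2-/- against EZH2-/- +EZH2 the higher count was 1 with a pseudocount of 0.5 or 1 RPM, the replicate block or without replicate 3, and 2 by reads above the lowest member with the block, where the lower count was 1 without and 2 with it. Beyond the calls named here and in the report, the replicate block changed no other call of a member. Reads above the lowest member and that count with the block, both chosen after seeing the data like the fit without replicate 3, reversed 6 of 15 gamma genes against EZH2+/+ in EZH2-/- (PCDHGA2 1.10, PCDHGA6 1.35, PCDHGB4 2.10, PCDHGA8 1.78, PCDHGB5 3.90, PCDHGA11 0.73) and in EZH2-/- +EZH2 (1.15, 0.62, 1.45, 0.74, 3.24 and 0.98), and in EZH2-/+ PCDHGA2 (0.97) and PCDHGA6 (0.29), both called before, and PCDHGA10 (0.51), not called before. The sign also changed for 6 of 13 alpha genes in EZH2-/- cells, 5 in EZH2-/+ cells and 7 in the restored cells. By construction that count drops the shared reads. It leaves PCDHGA2 no reads in EZH2+/+ replicates 2 and 3, where PCDHGA2 was the lowest member. For the same reason it leaves PCDHA1 none in EZH2-/- replicate 1 and EZH2-/+ replicate 3. PCDHA7 is left none in EZH2-/- replicate 3 and EZH2-/- +EZH2 replicate 1. For the other settings the cause was not tested. Centring H3K27me3 on promoters without the mark moved the median change in EZH2-/- to 1.23 for beta and 1.21 for gamma promoters, and in EZH2-/- +EZH2 to 0.42 for gamma, and 93 other medians moved by less than their spread. Depth limits PCDHA6 in EZH2-/- cells and the EZH2+/+ H3K4me3 column.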
